A study of Mus musculus with 15 samples.

Results

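Adherent cells of mouse bone marrow grown with granulocyte-macrophage colony-stimulating factor (GM-CSF) were compared with adherent cells grown with macrophage colony-stimulating factor (M-CSF). The comparison rests on 2 of the 15 arrays of the series, the array titled GM-CSF Adh and the array titled MCSF Adh, so each condition had 1 array and no difference here has a replicate or a p-value. All 34945 of 45037 probe sets that carried a single gene symbol entered, and they represented 18193 genes. Per the labels, whole marrow of C57Bl/6 mice was kept for 7 days in 20 ng/ml of either factor, and the cells still attached after washing with buffered saline were analysed. These adherent cells were not sorted by any surface marker, and the labels give neither the age nor the number of the mice. Another culture array, of non-adherent cells purified by CD11c from the GM-CSF culture, is given beside them. The 3 arrays are called the GM-CSF cells, the M-CSF cells and the CD11c+ cells below.

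M-CSF binds the receptor tyrosine kinase encoded by Csf1r and is the main survival and growth factor of macrophages. GM-CSF binds a receptor made of a private alpha chain and a shared beta chain, which signals largely through the kinase JAK2 and the transcription factor STAT5, and it is needed for alveolar macrophages in the lung. Marrow grown with GM-CSF is the usual source of cultured dendritic cells, but its attached fraction is known to hold macrophages as well, while marrow grown with M-CSF gives a nearly pure macrophage culture.

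Values are the deposited intensities on a linear scale, with a median over all probe sets of 24.70 for the GM-CSF cells, 25.66 for the CD11c+ cells and 24.09 for the M-CSF cells. A log2 difference is always the GM-CSF cells minus the M-CSF cells, on log2(intensity + 32), which understates a difference when either value is dim. A gene was counted when it lay at least 4-fold apart on that scale and its brighter value exceeded the median of its array. The only replicate arrays in the series are pairs of sorted progenitors on another scale, where 2 to 9 genes differed 2-fold, 0 differed 4-fold and the pooled log2 SD was 0.108. Cultures were not among them, so the spread between cultures is unknown.

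Both arrays carried the genes of mononuclear phagocytes at high intensity. Csf1r, the M-CSF receptor, measured 8438 in the GM-CSF cells and 8426 in the M-CSF cells, a log2 difference of 0.00. Spi1, which encodes the myeloid factor PU.1, gave 2444 against 2062, and Cd68, a late endosomal glycoprotein of macrophages, gave 8523 against 9331. The leukocyte marker Ptprc, the integrin Itgam and the lysozyme gene Lyz2 also lay within 2-fold, with log2 differences of 0.17, 0.81 and -0.33. Adgre1, which encodes the macrophage antigen F4/80, gave 4937 against 6889, and Fcgr1, the high-affinity receptor for IgG, gave 2249 against 4159.6. Mertk, a receptor for the engulfment of dying cells, was 1435 in the GM-CSF cells and 483 in the M-CSF cells, the 1 of these 9 identity genes that lay more than 2-fold apart.

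Most genes were close between the 2 arrays. The log2 values of all 45037 probe sets correlated at 0.973, and 94.5% of the genes lay within 2-fold. At 4-fold, 208 genes (1.14%) were higher in the GM-CSF cells and 55 (0.302%) were lower, 263 (1.45%) in all. At 2-fold the counts were 613 higher (3.37%) and 385 lower (2.12%), 998 (5.49%) in all, and the median log2 difference over all genes was -0.02. The count of higher genes exceeded that of lower genes at both folds. These shares over all genes are the background for each list count below. Of the 208 higher genes, 66 lay at or below the median of the array in the M-CSF cells, so their fold depends strongly on the added 32. In bulk RNA, fewer cells that express a gene and less RNA of it per cell cannot be told apart, and this holds for every difference below.

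**Figure D1:**
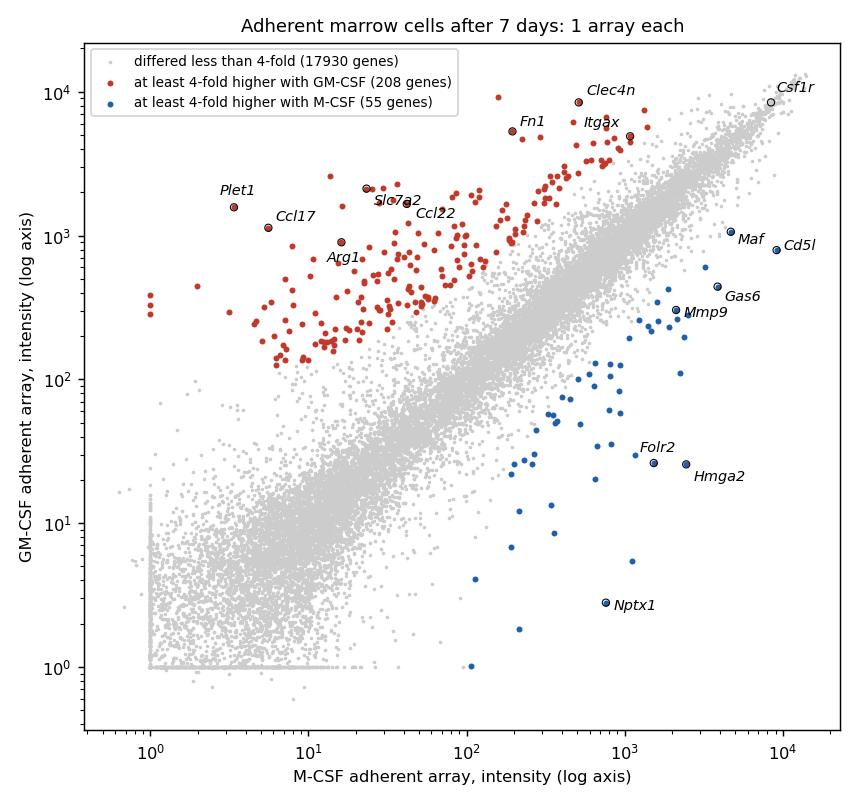
Intensity of each of 18193 genes on the GM-CSF adherent array (vertical, log axis) against the M-CSF adherent array (horizontal, log axis), 1 array each. Red points are the 208 genes at least 4-fold higher with GM-CSF, blue points the 55 at least 4-fold higher with M-CSF, and grey points the rest, which lie along the diagonal with Csf1r near its upper end.

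The GM-CSF cells held high levels of the chemokine genes Ccl17 and Ccl22, of the arginine-handling genes Arg1 and Slc7a2, of the kallikrein genes Klk1b1 and Klk1b11, and of Ear3, Plet1 and Spint1. Ccl17 and Ccl22 encode ligands of the receptor CCR4 that draw T helper cells, and their genes lie close together on chromosome 8. Ccl17 measured 1133 in the GM-CSF cells, 3525 in the CD11c+ cells and 5.58 in the M-CSF cells, and its log2 difference of 4.95 sets a near-absent signal in the M-CSF cells against a bright one with GM-CSF. Ccl22 measured 1661 in the GM-CSF cells, 7244 in the CD11c+ cells and 41.9 in the M-CSF cells, with a log2 difference of 4.52. Both chemokines were brightest in the non-adherent CD11c+ cells and dimmest in the M-CSF cells. The 250 bases before the RefSeq start of each gene (GRCm38.p6) are shown because both genes are among the 15 largest differences and lie in the same stretch of the genome. Capitals mark matches to 3 of 5 motifs searched on both strands, as set out after the sequences.

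Ccl17 (chr8:94810203-94810452, plus strand): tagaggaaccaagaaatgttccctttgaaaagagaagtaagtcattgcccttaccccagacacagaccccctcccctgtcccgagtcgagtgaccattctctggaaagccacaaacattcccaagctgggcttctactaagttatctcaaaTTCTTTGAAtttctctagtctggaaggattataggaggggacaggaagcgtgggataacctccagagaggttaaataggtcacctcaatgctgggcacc

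Ccl22 (chr8:94745434-94745683, plus strand): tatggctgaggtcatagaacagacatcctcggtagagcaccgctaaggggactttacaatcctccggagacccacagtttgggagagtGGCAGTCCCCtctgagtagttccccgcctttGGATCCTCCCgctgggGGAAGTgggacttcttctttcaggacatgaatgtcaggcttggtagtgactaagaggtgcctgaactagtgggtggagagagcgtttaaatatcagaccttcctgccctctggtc

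The 5 motifs were a STAT palindrome TTCNNNGAA, an NF-kB pattern of GGG and CC with any 5 bases between them, an AP-1 site TGANTCA, the PU.1 core GGAAGT and a Maf core TGCTGA. The Ccl17 window held 1 match, to the STAT palindrome, at bases -99 to -91 from the start. The Ccl22 window held 2 matches to the NF-kB pattern, both on the opposite strand, at -162 to -153 and -131 to -122, and 1 PU.1 core at -115 to -110. For shares, each of the 14452 measured genes with an entry was counted by the window of its first listed start only. The STAT palindrome occurred in 6.3%, the NF-kB pattern in 56.7%, the AP-1 site in 5.58% and the PU.1 core in 21.5%. For the Maf core the share was 14.4%. Of the 208 higher genes, 153 had an entry, and the shares were 9.15% for STAT, 51.6% for NF-kB, 9.15% for AP-1, 26.8% for the PU.1 core and 13.7% for the Maf core. These are descriptions of letters in a window and not of binding.

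Arg1 encodes arginase 1, which turns arginine into ornithine and urea, and Slc7a2 encodes the cationic amino acid transporter CAT2 that brings arginine into the cell. Arg1 measured 898 in the GM-CSF cells, 1211 in the CD11c+ cells and 16.2 in the M-CSF cells, a log2 difference of 4.27. Slc7a2 measured 2119.8 in the GM-CSF cells, 2385 in the CD11c+ cells and 23.3 in the M-CSF cells, a log2 difference of 5.28. In both genes the 2 GM-CSF fractions lay close together and far above the M-CSF cells. These belong to a list of 20 genes of alternative activation, the state that interleukin 4 induces in macrophages, except Slc7a2, which was listed with the arginine enzymes. In the alternative activation list 11 of 20 members were 4-fold higher and 0 were lower, against 1.14% and 0.302% of all genes, and its median log2 difference was 2.15. All 20 lay above 0, and the 11 included Ccl17, Ccl22 and Arg1, already described for their large differences. The members Retnla, Chil4 and Alox15 were dim on both arrays, at 18.85 against 2.53, 9.68 against 1.27 and 9.3 against 4.46. Egr2, Il4ra, Il1rn, Mmp12 and Clec10a lay within 2-fold. Mgl2, a galactose-type lectin, gave 1862 in the GM-CSF cells and 80.6 in the M-CSF cells, and Chil3, which encodes the chitinase-like protein Ym1, gave 7437 in the GM-CSF cells and 1322 in the M-CSF cells. Cdh1, which encodes E-cadherin, measured 772 in the GM-CSF cells, 498 in the CD11c+ cells and 29.9 in the M-CSF cells. Ccl24, an eotaxin, was 1697 against 268, the cross-linking enzyme Tgm2 3161 against 736, and Pdcd1lg2, which encodes the ligand PD-L2, 186 against 13.9. Of these, Pdcd1lg2 stood apart by its level in the CD11c+ cells, 1682.

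Klk1b1 and Klk1b11, which belong to a cluster of near-identical tissue kallikrein genes, gave the largest differences of all. Klk1b1 measured 2594 in the GM-CSF cells, 3239 in the CD11c+ cells and 13.7 in the M-CSF cells, and Klk1b11 measured 9180.0 in the GM-CSF cells, 9408 in the CD11c+ cells and 159 in the M-CSF cells. Because the copies are so alike, the probe sets may not separate them, and the gene behind each signal is uncertain. The same holds for Ear3, of the eosinophil-associated ribonucleases, at 2121 in the GM-CSF cells, 1635 in the CD11c+ cells and 25.3 in the M-CSF cells. All 3 were bright in both GM-CSF fractions. Plet1, a surface protein of epithelial progenitors that alveolar macrophages also carry, measured 1572 in the GM-CSF cells, 1376 in the CD11c+ cells and 3.38 in the M-CSF cells. Spint1, an inhibitor of serine proteases at cell surfaces, measured 2140.5 in the GM-CSF cells, 2684 in the CD11c+ cells and 29.8 in the M-CSF cells. Fstl1, a secreted glycoprotein, gave 1608 in the GM-CSF cells and 16.3 in the M-CSF cells, and Plxdc2, a plexin-domain membrane protein, gave 1772 in the GM-CSF cells and 34.4 in the M-CSF cells. Asgr2, a subunit of the asialoglycoprotein receptor, gave 1679.8 in the GM-CSF cells and 27.9 in the M-CSF cells. Fn1, which encodes fibronectin, was bright with GM-CSF at 5301 and stood at 195 in the M-CSF cells. Ifitm1, an interferon-inducible membrane protein, gave 4677 in the GM-CSF cells and 224 in the M-CSF cells. None of the 15 leading genes had a CD11c+ value near that of the M-CSF cells.

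**Figure D2:**
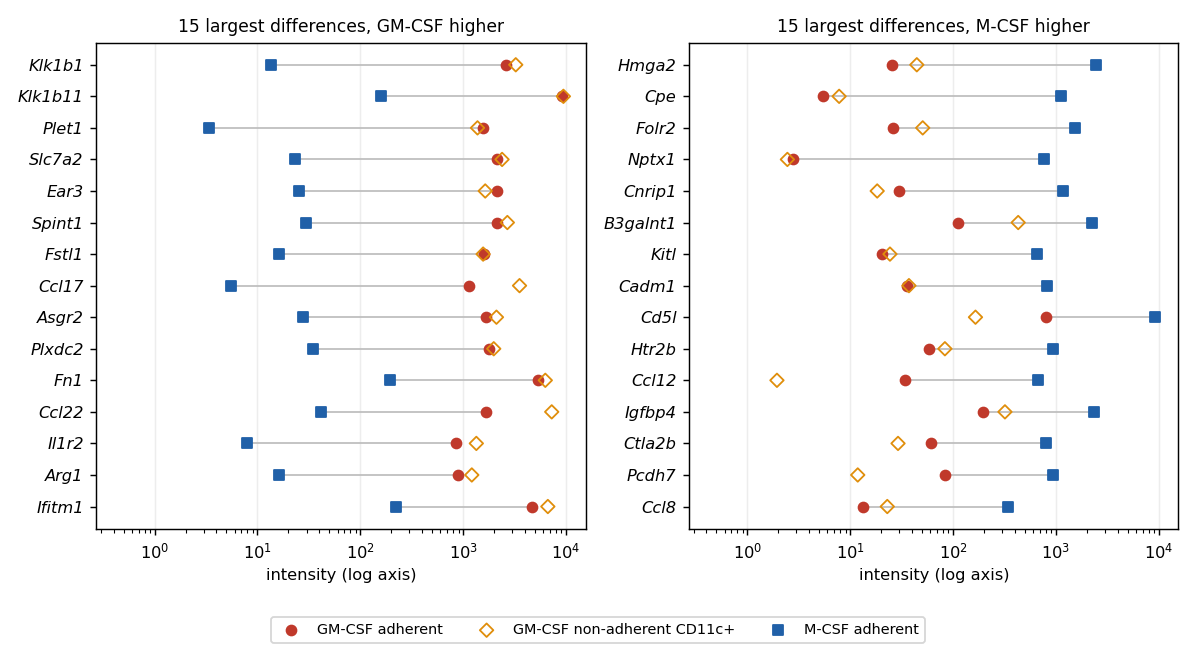
Intensity (log axis) of the 15 genes with the largest difference in each direction, for the GM-CSF adherent (red circles), GM-CSF non-adherent CD11c+ (open diamonds) and M-CSF adherent (blue squares) arrays, 1 array each. For the genes higher with GM-CSF the diamonds lie beside or above the circles, and for the genes higher with M-CSF they lie on the low side with the circles.

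The genes highest in the M-CSF cells against the GM-CSF cells included Hmga2, the folate receptor gene Folr2, Cpe, Kitl and Cd5l. Hmga2 encodes a chromatin protein that is abundant in fetal and growing cells. It measured 25.6 in the GM-CSF cells, 44.4 in the CD11c+ cells and 2451 in the M-CSF cells, a log2 difference of -5.43, the largest in this direction. The other probe sets of Hmga2 gave log2 differences of -6.69, -5.11 and, for a dim one, -0.54. Of the 14 listed growth and RNA-binding genes of fetal-type cells, Hmga2 was the 1 gene 2-fold or 4-fold lower, 0 were higher, and the median was -0.03.

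Folr2, the folate receptor of tissue macrophages, measured 26.2 in the GM-CSF cells, 50.6 in the CD11c+ cells and 1528 in the M-CSF cells, a log2 difference of -4.75. It was dim in both GM-CSF fractions. RefSeq gives 2 starts for Folr2, and the 250 bases before each are shown because the gene is among the 3 largest differences toward M-CSF. Folr2 lies on the minus strand, the sequences read along the gene, and capitals mark matches to the motifs named above.

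Folr2, start A (chr7:101857191-101857440, minus strand): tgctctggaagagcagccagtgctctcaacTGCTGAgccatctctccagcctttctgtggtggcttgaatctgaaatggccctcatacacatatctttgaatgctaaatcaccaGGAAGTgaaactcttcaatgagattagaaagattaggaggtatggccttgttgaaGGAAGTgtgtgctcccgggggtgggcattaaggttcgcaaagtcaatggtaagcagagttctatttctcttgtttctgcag

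Folr2, start B (chr7:101845332-101845581, minus strand): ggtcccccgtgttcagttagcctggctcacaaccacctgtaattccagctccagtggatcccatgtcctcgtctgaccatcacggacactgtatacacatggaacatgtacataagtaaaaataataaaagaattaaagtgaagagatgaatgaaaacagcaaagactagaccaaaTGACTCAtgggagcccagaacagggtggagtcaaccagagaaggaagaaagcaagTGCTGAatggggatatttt

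The window at start A held the Maf core at -220 to -215 and 2 PU.1 cores, at -136 to -131 and -81 to -76. The window at start B held the AP-1 site TGACTCA at -74 to -68 and the Maf core at -19 to -14. Of the 55 lower genes, 42 had an entry. By the first listed start of each gene, 31% of those held the Maf core and 31% the PU.1 core. The shares were 61.9% for NF-kB, 9.52% for AP-1 and 0 of 42 for STAT. The window of Hmga2 held 0 matches to the 5 motifs.

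The other leading genes of the M-CSF cells were mostly secreted or surface proteins. Cpe, which encodes the prohormone-trimming carboxypeptidase E, measured 5.46 in the GM-CSF cells, 7.8 in the CD11c+ cells and 1108 in the M-CSF cells. Nptx1, a secreted pentraxin best known from neurons, measured 2.8 in the GM-CSF cells, 2.45 in the CD11c+ cells and 761 in the M-CSF cells. Cnrip1, a cannabinoid receptor interacting protein, gave 29.8 in the GM-CSF cells and 1161 in the M-CSF cells, and the galactosaminyltransferase gene B3galnt1 gave 112 in the GM-CSF cells and 2236 in the M-CSF cells. Each of these 4 was lower in both GM-CSF fractions than in the M-CSF cells. Kitl, the ligand of the receptor KIT, measured 20.4 in the GM-CSF cells, 24.3 in the CD11c+ cells and 648 in the M-CSF cells. Cadm1 and Pcdh7, both cell adhesion molecules, gave 35.5 against 822 and 83.7 against 925 in the GM-CSF and M-CSF cells. Cd5l, a secreted scavenger-type protein of tissue macrophages, was 792 in the GM-CSF cells, 165 in the CD11c+ cells and 9143 in the M-CSF cells. Cd5l was thus still above its array's median in the GM-CSF cells. Igfbp4, which binds insulin-like growth factors, gave 197 against 2361, and all 6 of its probe sets were lower. Htr2b, a serotonin receptor, gave 58.2 against 934, and Ctla2b, related to protease propeptides, gave 60.9 against 796.

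The receptors for GM-CSF were present on both arrays and moderately higher with GM-CSF. Csf2ra, the alpha chain, gave 5815 against 3918, a log2 difference of 0.57. Csf2rb, the shared beta chain, gave 9468 against 3392 and a difference of 1.47. The other probe set of Csf2rb gave 4922.5 against 1257.8 and a difference of 1.94. The related Csf2rb2 gave 4352 against 2234 and 0.95. These 2 beta chains are close paralogs whose probes may cross-react. Among 33 cytokine receptors, 2 were 4-fold higher and 0 lower, 9 were 2-fold higher and 0 lower, and the median was 0.49. The first was Il1r2, the decoy receptor for interleukin 1, at 842 in the GM-CSF cells, 1341 in the CD11c+ cells and 7.88 in the M-CSF cells. The second was Il13ra1, a chain of the receptor for interleukins 4 and 13, at 600.4 against 89.5. Il1r1, the signalling receptor for interleukin 1, was 70.3 against 8.42, and Il17ra was 749.7 against 188. No receptor of the list was 2-fold lower in the GM-CSF cells.

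Of the feedback inhibitors of cytokine signalling, Socs3, Socs2 and Cish were higher with GM-CSF. Socs3 measured 829 in the GM-CSF cells, 508 in the CD11c+ cells and 24.2 in the M-CSF cells, Socs2 measured 471 in the GM-CSF cells, 2497 in the CD11c+ cells and 22.4 in the M-CSF cells, and Cish, a classical STAT5 target, measured 330.2 in the GM-CSF cells, 699.6 in the CD11c+ cells and 62.4 in the M-CSF cells. Socs2 and Cish were highest in the CD11c+ cells and Socs3 in the adherent GM-CSF cells. In the list of 20 STAT5 and feedback genes, 2 were 4-fold higher and 0 lower, 3 were 2-fold higher and 2 lower, and the median was 0.49. The 2 lower genes were Ccnd1, which encodes cyclin D1, at 1253 against 4139.6, and Spred1, an inhibitor of the Ras pathway, at 554 against 1424. The inhibitors Socs1 and Dusp6 lay within 2-fold, with log2 differences of 0.53 and -0.18. Averaged over its probe sets, Socs2 differed by 1.14 rather than 3.21 on the log2 scale and lost its 4-fold count.

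Transcription factors of myeloid identity were mostly alike, with a minority higher in the GM-CSF cells. Of 54 measured, 4 were 4-fold higher and 1 lower, 15 were 2-fold higher and 3 lower, and the median was 0.43. Runx3 measured 542 in the GM-CSF cells, 1129 in the CD11c+ cells and 27.5 in the M-CSF cells, and Nr4a3, an orphan nuclear receptor induced by stimulation, measured 374 in the GM-CSF cells, 3005 in the CD11c+ cells and 14.9 in the M-CSF cells. Irf4, needed by dendritic cells of the cDC2 type and in alternative activation, measured 319 in the GM-CSF cells, 950.0 in the CD11c+ cells and 27 in the M-CSF cells. Bhlhe40 was 3357 in the GM-CSF cells and 616 in the M-CSF cells. All 4 were higher still in the CD11c+ cells. Over all probe sets of a gene, the differences of Runx3, Nr4a3 and Irf4 were 1.73, 1.05 and 1.51, below 4-fold. Klf4, a factor of monocytes, gave 1143 against 294, and Cebpb gave 4898 against 1600.4. Batf3, which dendritic cells of the cDC1 type need, measured 304 in the GM-CSF cells, 902 in the CD11c+ cells and 103 in the M-CSF cells. Irf8, needed for monocytes and cDC1, was 2075 in the GM-CSF cells, 5181 in the CD11c+ cells and 2268 in the M-CSF cells, so the 2 adherent fractions were within 2-fold. Zbtb46, which marks classical dendritic cells, was 66.8 in the GM-CSF cells, 293 in the CD11c+ cells and 33.5 in the M-CSF cells, and the adherent fractions were again within 2-fold. Pparg, which alveolar macrophages need downstream of GM-CSF, was 1319 in the GM-CSF cells, 663 in the CD11c+ cells and 1973 in the M-CSF cells, and was not higher with GM-CSF at this time. Maf, a factor of resident macrophages, was the 1 gene 4-fold lower, at 1063 in the GM-CSF cells, 635 in the CD11c+ cells and 4693 in the M-CSF cells. Etv5 and Tcf4, at 301 against 980.2 and 258 against 563, were 2-fold lower.

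The antigen presentation genes were higher as a group in the GM-CSF cells and higher again in the CD11c+ cells. Of 10 genes of major histocompatibility complex (MHC) class II, 4 were 4-fold higher and 0 lower, 9 were 2-fold higher and 0 lower, and the median was 1.77. H2-DMb2 and H2-DMa, subunits of the peptide-loading factor, gave 1166 against 83 and 3291 against 568. The class II chains H2-Aa and H2-Ab1 gave 9049 against 2919 and 7437 against 2641, and Cd74, the invariant chain, gave 9647 against 4726. The chains were thus already bright in the M-CSF cells. Ciita, the master activator of class II genes, measured 164 in the GM-CSF cells, 466 in the CD11c+ cells and 24 in the M-CSF cells. Of 17 costimulation and maturation genes, 4 were 4-fold higher and 0 lower, 9 were 2-fold higher and 2 lower, and the median was 1.13. Ccr7, the receptor that guides dendritic cells to lymph nodes, measured 1007 in the GM-CSF cells, 7190.4 in the CD11c+ cells and 86.5 in the M-CSF cells. Fscn1, an actin bundler of mature dendritic cells, measured 1648 in the GM-CSF cells, 7967 in the CD11c+ cells and 177 in the M-CSF cells, and Cd86, a costimulatory ligand, measured 488 in the GM-CSF cells, 1281 in the CD11c+ cells and 129 in the M-CSF cells. All 3 were highest in the CD11c+ cells and lowest in the M-CSF cells. Cd40 and Il15 ran the other way between the adherent fractions, at 54.3 against 143 and 171 against 381.

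The core genes of classical dendritic cells were mixed. Of 17, 4 were 4-fold higher and 1 lower, 6 were 2-fold higher and 2 lower, and the median was 0.55. Itgax, which encodes CD11c, was 4904 in the GM-CSF cells, 4515 in the CD11c+ cells and 1083 in the M-CSF cells, so the adherent GM-CSF cells, which were not sorted on CD11c, carried as much as the fraction that was. Spint2, a protease inhibitor, measured 344 in the GM-CSF cells, 2225 in the CD11c+ cells and 51.6 in the M-CSF cells, and Dpp4, a surface peptidase, measured 122 in the GM-CSF cells, 457 in the CD11c+ cells and 18 in the M-CSF cells. Averaged over probe sets, Spint2 (1.95) and Runx3 (1.73) of the 4 higher genes were below 4-fold. Flt3, a defining receptor of the lineage, was dim in both adherent fractions, at 21 and 54.2, beside 204 in the CD11c+ cells. Hmgn3 was 75.6 in the GM-CSF cells, 687 in the CD11c+ cells and 401 in the M-CSF cells and Ckb 2151 in the GM-CSF cells, 1031 in the CD11c+ cells and 5075 in the M-CSF cells. Of 15 genes that separate cDC1 from cDC2, 2 were 4-fold higher and 1 lower, 6 were 2-fold higher and 1 lower, and the median was 0.34. The 2 were Mgl2 and Irf4, and the lower gene was the adhesion molecule Cadm1. Xcr1, the chemokine receptor that defines cDC1, was listed at or near 1 on all 3 arrays (1.22, 1 and 1.22). The part of dendritic cells within the adherent GM-CSF fraction in these differences was not tested.

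Genes of tissue macrophages divided between the 2 cultures. Of 30, 2 were 4-fold higher and 5 lower with GM-CSF, 5 were 2-fold higher and 9 lower, and the median was -0.44. Axl, a receptor for the bridging molecule GAS6, measured 4388 in the GM-CSF cells, 4066 in the CD11c+ cells and 632 in the M-CSF cells, while Gas6 itself measured 442 in the GM-CSF cells, 342 in the CD11c+ cells and 3872 in the M-CSF cells. The receptor was thus high where its ligand was low. Averaged over their probe sets, Axl differed by 1.37 and Gas6 by -1.77, and both lost their 4-fold count. Stab1, a scavenger receptor of resident macrophages, was 256 against 1614, and the endothelin receptor Ednrb was 27.4 against 230.1. F13a1, a clotting factor of monocytes and macrophages, was 1824 against 331. Pf4, a chemokine of platelets and macrophages, was 2357 against 7016, and Pltp, a phospholipid transfer protein, 2876 against 6792. Of 16 scavenger receptors and apolipoproteins, 3 were 4-fold higher and 2 lower, 3 were 2-fold higher and 3 lower, and the median was -0.03. Olr1, a receptor for oxidised lipoprotein, measured 521 in the GM-CSF cells, 419.9 in the CD11c+ cells and 10.2 in the M-CSF cells, and Marco, a receptor for bacteria and particles, measured 177 in the GM-CSF cells, 15.5 in the CD11c+ cells and 11.1 in the M-CSF cells. Marco was thus highest in the attached GM-CSF cells and dim in the other fractions. Stab2, related to Stab1, was lower with GM-CSF, at 30.2 against 266. Of 16 complement genes, 3 were 4-fold higher and 0 lower, 4 were 2-fold higher and 3 lower, and the median was -0.12. Cfb, complement factor B, was 244 against 9.16, and C1qc, a chain of C1q, was 2497 against 6308.

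Genes known from alveolar macrophages were higher with GM-CSF more often than all genes were. Of 27, 9 were 4-fold higher and 0 lower, against 1.14% and 0.302% of all genes. At 2-fold, 11 were higher and 0 lower, against 3.37% and 2.12% of all genes, and the median was 0.84. Besides Plet1, Olr1, Marco, Chil3 and Itgax, these included Siglecf, the sialic acid lectin that marks alveolar macrophages and eosinophils, at 436 in the GM-CSF cells, 306 in the CD11c+ cells and 51.2 in the M-CSF cells. Ctsk, which encodes cathepsin K, measured 2608 in the GM-CSF cells, 2401 in the CD11c+ cells and 335 in the M-CSF cells. The zinc transporter Slc39a2 was 347 against 20.5 and the membrane protein Perp 217 against 7.49. Car4, a surface carbonic anhydrase, was 79.1 against 1.7, above 2-fold only. Ctsk also stood in the list of 19 osteoclast genes, where 1 was 4-fold higher and 1 lower, 4 were 2-fold higher and 2 lower, and the median was 0.08. Acp5, the tartrate-resistant phosphatase, was 1190.4 against 327, and Dcstamp, needed for cell fusion, was 2027 against 899.9. The lower gene was Mmp9.

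The monocyte list held genes that were higher with GM-CSF and genes that lay within 2-fold. Of 15, 5 were 4-fold higher and 0 lower, 8 were 2-fold higher and 0 lower, and the median was 1.04. Ccr2, which takes monocytes out of marrow, measured 4052 in the GM-CSF cells, 3416 in the CD11c+ cells and 906 in the M-CSF cells, and Itgal, the alpha chain of LFA-1, measured 991 in the GM-CSF cells, 985 in the CD11c+ cells and 97.4 in the M-CSF cells. F10, clotting factor X, was 4280.1 against 495, and Vcan, the proteoglycan versican, was 93.1 against 7.85. Plac8, Cx3cr1, Lyz2 and Cd14 of the same list lay slightly below 0, with log2 differences of -0.44, -0.38, -0.33 and -0.19. Among 23 C-type lectins and Siglecs, 6 were 4-fold higher and 0 lower, 10 were 2-fold higher and 1 lower, and the median was 0.84. Clec4n, which encodes the fungal receptor dectin-2, measured 8436 in the GM-CSF cells, 7459 in the CD11c+ cells and 513 in the M-CSF cells, and Clec4e, which encodes Mincle, measured 1694 in the GM-CSF cells, 1338 in the CD11c+ cells and 308 in the M-CSF cells. Cd33 was 856 against 96.4 and Siglec1, the 1 lower gene, was 127 against 303. Of 27 Ms4a, CD300 and paired receptors, 4 were 4-fold higher and 0 lower, 7 were 2-fold higher and 3 lower, and the median was 0.02. Pilra and Pilrb1, an inhibiting and an activating receptor of a pair, were both higher, at 2606 against 435 and 956 against 186. Ms4a6b and Ms4a7 were lower, at 996 against 3958 and 3366 against 7052. Of 9 Fc receptors, 0 were 4-fold apart, 1 was 2-fold higher and 0 lower, and the median was -0.14. The higher gene was the inhibiting receptor Fcgr2b, at 5092 against 2266, beside the activating Fcgr4 at 1258 against 2406. Of 17 Toll-like receptor genes, 1 was 4-fold higher and 0 lower, 1 was 2-fold higher and 1 lower, and the median was -0.18. Tlr2, the sensor of lipoproteins, was 2352 against 349, while its partner Tlr1 was 716 against 1676.

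The chemokine genes split by ligand. Of 16 CC chemokines, 4 were 4-fold higher and 3 lower, 4 were 2-fold higher and 5 lower, and the median was 0.01. Beside Ccl17, Ccl22 and Ccl24, the higher gene was Ccl5, at 886 in the GM-CSF cells, 5929.5 in the CD11c+ cells and 190.5 in the M-CSF cells. The lower genes were the ligands of the monocyte receptor CCR2 and their relatives. Ccl12 measured 34.2 in the GM-CSF cells, 1.94 in the CD11c+ cells and 670.0 in the M-CSF cells, Ccl7 measured 263 in the GM-CSF cells, 13.8 in the CD11c+ cells and 2155 in the M-CSF cells, and Ccl2 measured 1841 in the GM-CSF cells, 208 in the CD11c+ cells and 5214 in the M-CSF cells. Ccl8 was 13.3 in the GM-CSF cells, 22.9 in the CD11c+ cells and 342 in the M-CSF cells, and Ccl4 was 958 in the GM-CSF cells, 168 in the CD11c+ cells and 2626 in the M-CSF cells. In the first 3 of these genes the order was the same, with the CD11c+ cells lowest and the M-CSF cells highest, and it ran against Ccr2, which was higher with GM-CSF. Of 13 CXC chemokines, 1 was 4-fold higher and 0 lower, 3 were 2-fold higher and 1 lower, and the median was 0.11. Cxcl3, which attracts neutrophils, was 173 against 6.94, and Cxcl16 was 1552 against 668. Of 12 chemokine receptors, 2 were 4-fold higher and 1 lower, 3 were 2-fold higher and 2 lower, and the median was 0.26. The lower gene was Ccr3, the eotaxin receptor, at 12.2 against 215, the receptor for the ligand Ccl24 that was higher.

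Interleukin 1 genes led the cytokines. Il1a measured 688 in the GM-CSF cells, 302 in the CD11c+ cells and 10.7 in the M-CSF cells, and Il1b measured 1205 in the GM-CSF cells, 1107 in the CD11c+ cells and 93.8 in the M-CSF cells. Both were bright in the 2 GM-CSF fractions and dim in the M-CSF cells, as was the decoy receptor Il1r2. Of 26 cytokine genes, 4 were 4-fold higher and 0 lower, 6 were 2-fold higher and 1 lower, and the median was 0.02. Csf1, which encodes M-CSF itself, measured 1060.1 in the GM-CSF cells, 321 in the CD11c+ cells and 227 in the M-CSF cells. The adherent cells given GM-CSF thus held more message for M-CSF than the adherent cells given M-CSF. The CD11c+ cells of the GM-CSF culture lay within 2-fold of the M-CSF cells. Tgfbi, a matrix protein induced by TGF-beta, was 4787 against 863, and Inhba, an activin chain, was 112 against 8.42. Il12b, a subunit of interleukins 12 and 23, measured 229 in the GM-CSF cells, 2367 in the CD11c+ cells and 37.1 in the M-CSF cells.

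Of 22 genes of prostaglandin, leukotriene and arginine enzymes, 5 were 4-fold higher and 1 lower, 8 were 2-fold higher and 2 lower, and the median was 0.40. Alox5, which starts leukotriene synthesis, measured 621 in the GM-CSF cells, 525 in the CD11c+ cells and 43.6 in the M-CSF cells, and Ltc4s, which makes leukotriene C4, measured 217 in the GM-CSF cells, 812 in the CD11c+ cells and 48 in the M-CSF cells. Pla2g7, which degrades platelet-activating factor, was 5615 against 766, and Kynu, an enzyme of tryptophan breakdown, was 413 against 17.5. Hpgds, which makes prostaglandin D2, ran the other way, at 234 in the GM-CSF cells, 111 in the CD11c+ cells and 1413 in the M-CSF cells. Gatm, which uses arginine to make a creatine precursor, was also lower, at 312 in the GM-CSF cells, 203 in the CD11c+ cells and 1119 in the M-CSF cells. Within arginine use, Arg1, Arg2 (117 against 15.7) and the transporter Slc7a2 were thus higher with GM-CSF, and Gatm was higher with M-CSF.

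Matrix and matrix protease genes were among the groups with most counts. Of 26, 9 were 4-fold higher and 1 lower, 16 were 2-fold higher and 3 lower, and the median was 1.41. The membrane protease gene Mmp14 measured 1968 in the GM-CSF cells, 2288 in the CD11c+ cells and 85.6 in the M-CSF cells, and Mmp19 was 1288 against 164. Mmp8, which encodes neutrophil collagenase, measured 6181 in the GM-CSF cells, 6157 in the CD11c+ cells and 473 in the M-CSF cells. Mmp9, which encodes gelatinase B, was the exception, at 304 in the GM-CSF cells, 28 in the CD11c+ cells and 2115 in the M-CSF cells. The proteases therefore differed in opposite directions between the 2 cultures. Thbs1, thrombospondin 1, was 5677 against 1387, and the clotting factor F7 was 4472 against 1082. The protease Plau, urokinase, was lower at 27.3 against 154, while its receptor Plaur was higher at 3291 against 1377. Of 26 integrins and adhesion genes, 4 were 4-fold higher and 1 lower, the same at 2-fold, and the median was 0.40. Itga1, the alpha chain of a collagen receptor, was 317 against 5.24, and Vcam1, an adhesion ligand, was lower at 57 against 327.

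Most genes of mitosis and DNA replication were somewhat lower with GM-CSF, within 2-fold for the majority. Of 31 mitosis genes, 0 were 4-fold apart, 0 were 2-fold higher and 9 lower, the median was -0.82, and no member lay above 0. Birc5, which encodes survivin, was 645 against 1649, Ccna2, which encodes cyclin A2, 817 against 1629, and the kinetochore gene Ndc80 81.4 against 258. Of 32 DNA replication genes, 0 were 4-fold apart, 0 were 2-fold higher and 6 lower, and the median was -0.71. Mcm5, part of the replicative helicase, was 996 against 2079.6, and Tk1, thymidine kinase, was 259 against 703. The members named here stayed above the median of the array in the GM-CSF cells. Of 17 D cyclins and inhibitors of cyclin-dependent kinases, 0 were 4-fold apart, 1 was 2-fold higher and 3 lower, and the median was -0.36. Ccnd1 measured 1253 in the GM-CSF cells, 345 in the CD11c+ cells and 4139.6 in the M-CSF cells, and its partner kinase Cdk6 measured 1184 in the GM-CSF cells, 520.1 in the CD11c+ cells and 2609.9 in the M-CSF cells. Btg2, which restrains growth, was higher at 996 against 273.

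Interferon-stimulated genes were also lower with GM-CSF. Of 26, 0 were 4-fold apart, 0 were 2-fold higher and 7 lower, and the median was -0.66. Ifit2 measured 335 in the GM-CSF cells, 127 in the CD11c+ cells and 1411 in the M-CSF cells, Ifit3 measured 272 in the GM-CSF cells, 157 in the CD11c+ cells and 1056 in the M-CSF cells, and Rsad2, which encodes viperin, measured 836 in the GM-CSF cells, 432 in the CD11c+ cells and 2508 in the M-CSF cells. Irf7, the factor that amplifies the interferon response, measured 382 in the GM-CSF cells, 258 in the CD11c+ cells and 1077 in the M-CSF cells. In each of these 4 the CD11c+ cells were lowest and the M-CSF cells highest.

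Metabolic groups differed little as a whole. Of 27 oxidative phosphorylation genes, 0 were 2-fold apart and the median was -0.05. Of 21 glycolysis genes, 0 were 4-fold apart, 2 were 2-fold higher and 1 lower, and the median was -0.10. Aldoc, an aldolase, was 1942 against 481, and the sugar transporter Slc2a6 was 512 against 125. Of 34 lysosome genes, 1 (Ctsk) was 4-fold higher and 0 lower, 3 were 2-fold higher and 0 lower, and the median was -0.05. Of 25 genes of cholesterol and fatty acid synthesis, 0 were 4-fold apart, 3 were 2-fold higher and 0 lower, and the median was 0.11. Scd1, which desaturates fatty acids, was 865 against 199.7, and Dhcr7, of the last steps to cholesterol, was 1190.4 against 299.9. Of 25 genes of lipid uptake, storage and efflux, 3 were 4-fold higher and 0 lower, 4 were 2-fold higher and 0 lower, and the median was 0.06. Ch25h, which makes 25-hydroxycholesterol, was 257 against 7.12, and the lipase Mgll was 2773 against 413. Of 24 iron, haem and redox genes, 1 was 4-fold higher and 0 lower, 5 were 2-fold higher and 2 lower, and the median was 0.12. Slc7a11, the cystine transporter, measured 482 in the GM-CSF cells, 454 in the CD11c+ cells and 22.4 in the M-CSF cells. The 2 lower genes were Tfrc, the transferrin receptor, at 1026 against 3943 and Slc40a1, the iron exporter, at 1496 against 3338. Lcn2, which binds iron-carrying siderophores and is also a neutrophil marker, was higher at 2440.0 against 981.

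**Figure D3:**
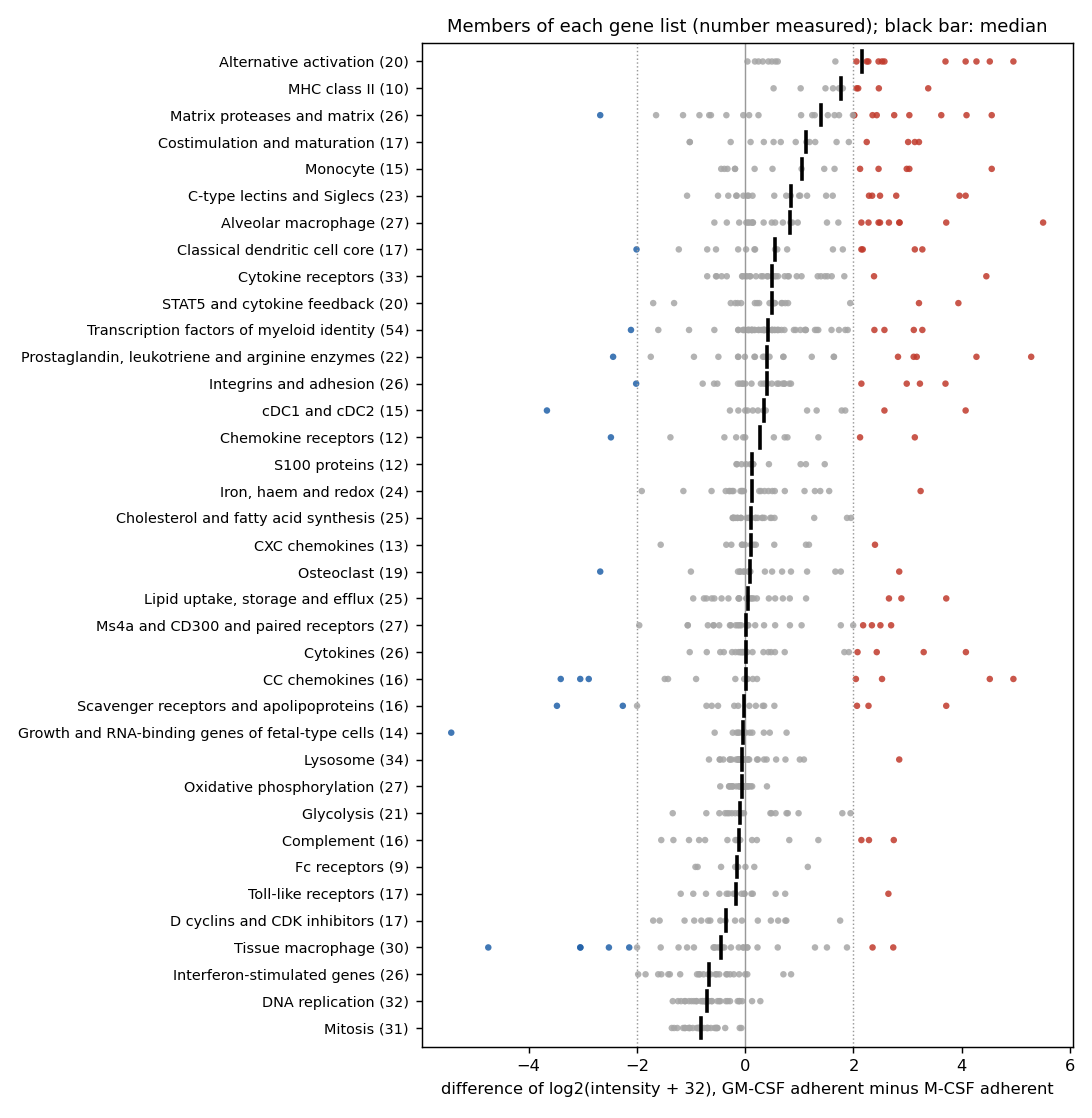
Difference of log2(intensity + 32), GM-CSF adherent minus M-CSF adherent, for every measured member of 37 gene lists, 1 point a gene, sorted by list median (black bar). Red and blue points are genes at least 4-fold higher or lower and dotted lines mark 4-fold. The medians run from 2.15 for alternative activation to -0.82 for mitosis.

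Markers of other cells were read on the same arrays, as the adherent fractions were not sorted. Of 12 neutrophil markers, 1 was 4-fold higher and 0 lower, 7 were 2-fold higher and 0 lower, the median was 1.04, and their summed intensity was 29633 in the GM-CSF cells, 8053.5 in the CD11c+ cells and 11425 in the M-CSF cells. Ngp measured 4379 in the GM-CSF cells, 123 in the CD11c+ cells and 2079 in the M-CSF cells, Ltf measured 1337 in the GM-CSF cells, 33.6 in the CD11c+ cells and 502 in the M-CSF cells, and S100a8 measured 7155 in the GM-CSF cells, 808 in the CD11c+ cells and 3503 in the M-CSF cells. Messages of Ngp, Ltf and S100a8 were thus present in both adherent fractions. Camp and Lcn2 ran the same way. Camp measured 546 in the GM-CSF cells, 1 in the CD11c+ cells and 160 in the M-CSF cells. Lcn2 measured 2440 in the GM-CSF cells, 366 in the CD11c+ cells and 981 in the M-CSF cells. The granule genes Elane, Prtn3, Ctsg and Mpo were much dimmer than Ngp, Ltf and S100a8 and within 2-fold. Elane was 125 against 93.4, Prtn3 66.9 against 65.9, Ctsg 53.4 against 61.4 and Mpo 132 against 217. Mmp8, the 4-fold higher marker of this list, did not follow Ngp, Ltf and S100a8. It was as bright in the CD11c+ cells as in the adherent GM-CSF cells. At 6157, Mmp8 made up most of the summed intensity of 8053.5 in the CD11c+ cells. Of 12 S100 and annexin genes, 0 were 4-fold apart, 3 were 2-fold higher and 0 lower, and the median was 0.13, and S100a8 and S100a9 were 2 of the 3. Of 12 markers of mast cells, basophils and eosinophils, 1 was 4-fold higher and 0 lower, 2 were 2-fold higher and 0 lower, the median was 0.10, and the sums were 1233 in the GM-CSF cells, 316 in the CD11c+ cells and 375 in the M-CSF cells. The 2 were Prg2, which encodes eosinophil major basic protein, at 850.5 in the GM-CSF cells, 4.29 in the CD11c+ cells and 79.7 in the M-CSF cells, and Epx, eosinophil peroxidase, at 52.8 in the GM-CSF cells, 8.69 in the CD11c+ cells and 3.59 in the M-CSF cells. The mast cell genes Cpa3 and Mcpt4 were 51.7 against 54.3 and 1.21 against 1.09. The part of neutrophils and eosinophils in the differences of genes they share with macrophages, such as Il1r2, Il1b, Siglecf and the Ear genes, was not tested.

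Markers of the other cell classes were mostly low, with single brighter genes. Which cells carried the brighter genes was not tested. Of 16 stromal and fibroblast markers, 0 were 4-fold apart, 1 was 2-fold higher and 0 lower, the median was 0.10, and the sums were 468 in the GM-CSF cells and 359.6 in the M-CSF cells. Of 10 endothelial and adipocyte markers, 0 were 4-fold apart, 1 was 2-fold higher (Vwf, 1088 against 309) and 0 lower, the median was 0.15, and the sums were 1282.5 and 465. The defining endothelial genes Pecam1 and Cdh5 were 16.2 against 9.19 and 9.24 against 13.5. Of 11 lymphocyte markers, 0 were 4-fold apart, 0 were 2-fold higher and 2 lower, the median was 0.11, and the sums were 179 and 266. Of 8 erythroid and megakaryocyte markers, 0 were 4-fold apart, 0 were 2-fold higher and 1 lower (Tfrc), the median was -0.12, and the sums were 1277 and 4223. Of 12 early progenitor markers, 0 were 4-fold apart, 0 were 2-fold higher and 1 lower (Sox4, 253 against 762), the median was -0.23, and the sums were 583 and 1208. Kit, a receptor of progenitors and mast cells, was 40.7 in the GM-CSF cells, 354 in the CD11c+ cells and 73.6 in the M-CSF cells. These classes were thus represented by single genes rather than by their defining sets.

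Marrow monocytes purified by negative selection and given GM-CSF for 0, 24 or 48 h were measured on 3 further arrays, 1 array a time. These arrays entered the culture comparison only through the mean over 15 arrays that chose each gene's probe set. Over all genes, 7.4% were 2-fold higher and 6.19% lower at 48 h than at 0 h, and at 24 h 6.22% were higher and 7.29% lower. Of the 208 genes higher in the adherent GM-CSF cells, 102 (49%) were 2-fold higher and 28 (13.5%) lower in monocytes at 48 h, with a median log2 difference of 0.95. At 24 h, 97 (46.6%) were higher and 24 (11.5%) lower. The 102 genes made up 7.57% of the 1347 that were higher in monocytes at 48 h. Of the 55 genes lower in the adherent GM-CSF cells, 15 (27.3%) were 2-fold higher and 6 (10.9%) lower in monocytes at 48 h. These shares exceeded those of all genes in both directions, for the 208 genes and for the 55. All genes include 6670 that were not above the median on either culture array and so could not be counted. Whether the excess reflects a link between the cultures and the monocytes was not tested. Granule genes of immature myeloid cells were bright at 0 h and much lower later, with Prtn3 at 10005 at 0 h, 166 at 24 h and 156 at 48 h and Mpo at 4935 at 0 h, 170.2 at 24 h and 277 at 48 h. The B cell gene Cd79b was 700.3 at 0 h, 25 at 24 h and 20 at 48 h. The part of other cells in the 0 h sample in these differences was not tested. These cells had no M-CSF arm, and time in culture and GM-CSF cannot be told apart.

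Single genes of the culture comparison behaved differently in monocytes. Ccl17 measured 48.7 at 0 h, 16201 at 24 h and 16325 at 48 h, and Ccl22 measured 33.4 at 0 h, 2080.2 at 24 h and 13548 at 48 h. Slc7a2 measured 75.9 at 0 h, 2587 at 24 h and 2264 at 48 h, and Plet1, the epithelial-type surface protein, measured 118 at 0 h, 17396 at 24 h and 17135 at 48 h. These 4 were low at 0 h and bright at 48 h. Arg1 measured 11.9 at 0 h, 213 at 24 h and 85.9 at 48 h, and Klk1b11 measured 42 at 0 h, 39.1 at 24 h and 64.5 at 48 h, so the kallikrein signal that was bright after 7 days of marrow culture was below the median of the array in monocytes at 48 h. Fn1, fibronectin, was lower with time, at 17130.0 at 0 h and 4314 at 48 h, and Ear3 was 2871 at 0 h and 82.9 at 48 h. Both signals were thus present in the 0 h sample, before GM-CSF was given, and which of its cells carried them was not tested. On the side of the M-CSF cells, Hmga2 measured 104 at 0 h, 77.3 at 24 h and 105 at 48 h and Folr2 measured 95.2 at 0 h, 136 at 24 h and 141 at 48 h, and neither was 2-fold apart. Ccl8 was 121 at 0 h and 1494 at 48 h, opposite to its place in the cultures. The monocyte arrays have a higher median intensity, 77.7 to 80.5, and levels are not comparable with those of the cultures.

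**Figure D4:**
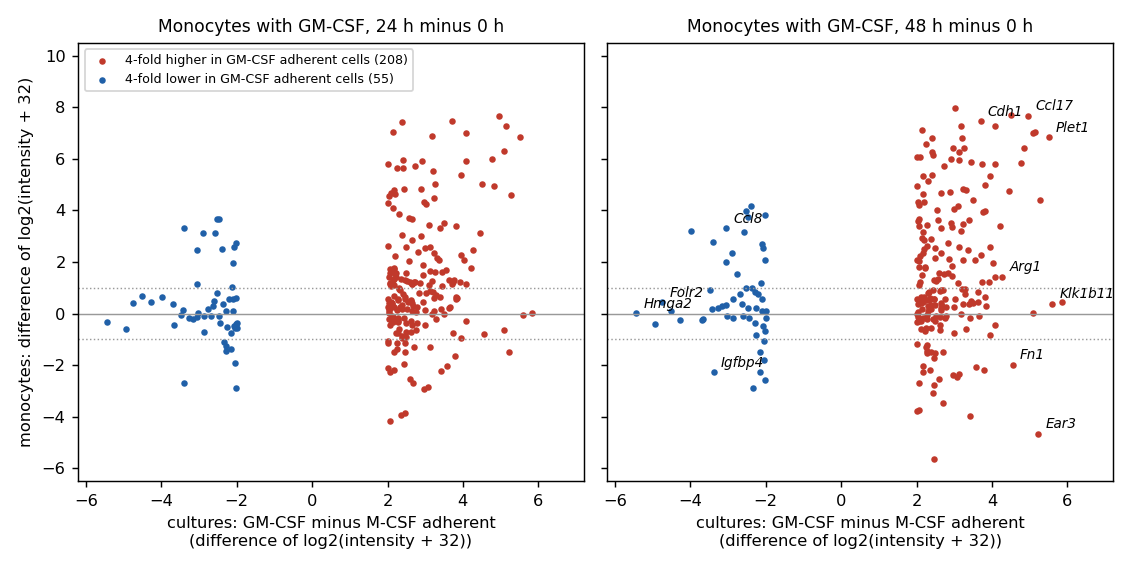
Difference of log2(intensity + 32) in monocytes after 24 h (left) and 48 h (right) with GM-CSF against 0 h, plotted against the difference between the adherent cultures, for the 208 genes 4-fold higher (red) and the 55 lower (blue), 1 array a group. Dotted lines mark 2-fold, and at 48 h 102 red points lie above the upper and 28 below the lower line.

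Genes with more than 1 probe set allowed the same difference to be read again on the same RNA. Of the 208 higher genes, 102 had several, and of their 137 other probe sets above the median 134 (97.8%) differed in the same direction and 106 (77.4%) did so by 2-fold. Of the 55 lower genes, 33 had several, and of 50 other probe sets 49 (98%) had the same direction and 36 (72%) reached 2-fold. In both directions 0 were 2-fold the opposite way. These probe sets share the arrays and the RNA and are no replicates of the cultures.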

How the data were processed

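The deposited values are intensities of the authors, 1 per probe set and array, on a linear scale; the background correction, the summary of probes and the scaling are not given in the sources used here. Per the labels' protocols, RNA was labelled with a 3' in vitro transcription kit. The culture arrays share a scale, by their medians, and were compared without further normalization. Values were taken as log2(intensity + 32), and log2 differences were formed between single arrays, so no test was possible and counts rest on 4-fold and 2-fold. With 1 array each side, the number of arrays sets the precision.

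Of 45037 probe sets, 932 carried several gene symbols and 9160 none. These were left out of the genes but not of the array medians or the correlation. Where a gene had several probe sets, the brightest on average across the 15 arrays stood for it, and 9183 of 18193 genes had 1 probe set. The members, the 44 gene lists (7 of them markers of other cells) and the rule for named genes were chosen with earlier results of these data known, and lists share members. Named genes were the 15 largest differences in each direction, a panel of identity, receptor and transcription factor genes, and up to 5 members of each list in each direction, with all members of lists of up to 12; clones, predicted genes, Y-linked genes and receptor segments were passed over. Genes named for their partners or roles beyond that rule were chosen after their values were seen, as were the promoters printed and the 5 motifs. Alternatives were the added constant, the choice of probe set, centring, quantile normalization and the filter. Scripts used Python 3.11.15, pandas 2.3.3, numpy 2.4.6 and matplotlib 3.10.9, and were tested on simulated data. Columns left without a sample numbered 0.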

Additional observations from a re-analysis of the deposited data

How the results depend on the processing

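The counts of genes 4-fold apart depended on the constant added before the logarithm and on the fold. With 64 added, 34 genes were lower, and with 100 added, 110 were higher and 28 lower. At 2-fold the counts were 613 higher and 385 lower, and at 8-fold 72 higher and 18 lower. Of the 263 genes counted, 263 were kept with 16 added, 177 with 64 added, 138 with 100 added, 261 with the probe set brightest in the cultures, 185 with the mean over probe sets, and 258 with centring or with quantile normalization. Of the 281 named genes, only those at least 2-fold apart were checked for a reversal, and 0 reversed direction across the 9 alternatives. Changes of sign in smaller differences were not counted. Medians of 4 lists near 0 (scavenger receptors, CC chemokines, CXC chemokines, and Ms4a and paired receptors) changed sign under 1 or 2 alternatives, all of them choices of probe set. Averaged over probe sets, Fscn1 (1.29), Spint2 (1.95), Itga1 (1.75), Kynu (1.85), Mgll (1.88), Il13ra1 (1.70), Csf1 (1.57), Marco (1.34), Ednrb (-0.98) and Vcam1 (-1.32) were no longer 4-fold apart. No paired analysis was possible because each culture condition had 1 array. The spread between cultures, and the authors' scaling, limit what single genes near 4-fold show.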

Other observations

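Besides the listed groups, 2 sets of genes were picked out after their values were seen. Of 9 measured kallikrein Klk1b genes, 4 were 4-fold higher in the GM-CSF adherent cells, 5 were 2-fold higher, and the median log2 difference was 1.67. Klk1b5 was 383 in the GM-CSF adherent cells and 1 in the M-CSF adherent cells, and Klk1b27 was 328 and 8.01. As these genes are near-identical copies, the number that truly differ is uncertain. Klk1b27 was listed at 1 in monocytes at 0, 24 and 48 h of GM-CSF, whereas Klk1b21 was bright there at all 3 times, from 1776 to 2489.5.

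Of 19 measured genes of amino acid synthesis and its stress response, 3 were 4-fold lower in the GM-CSF adherent cells and 9 were 2-fold lower, with a median of -0.97. Asns, asparagine synthetase, measured 218 in the GM-CSF adherent cells and 1465 in the M-CSF adherent cells. Phgdh, the first enzyme of serine synthesis, measured 109 and 595, and Trib3, a stress-induced pseudokinase, measured 56.1 and 352. The cystine transporter Slc7a11, which is induced by the same stress response, was the 1 gene of the set 2-fold higher, at 482 and 22.4. Asns was also low in the CD11c+ cells, at 114. Among the 10092 probe sets without a single gene symbol, 32 were 4-fold higher and 12 lower, and they are not named.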
